A study of Mus musculus with 10 samples.

Results

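The messages of adult mouse pancreas were measured on 2 of the 10 Affymetrix arrays of a tissue series, 1 on chip A and 1 on chip B, which carry different sets of probes. The pancreas arrays were chosen by their label, and each was set against the arrays of muscle, liver, hypothalamus and white adipose tissue on the same chip. All 5 tissues came from adult female C57BL/6 mice with no treatment or allele named, and total RNA was taken from each with Trizol, a phenol reagent. The arrays labelled by source as white adipose tissue carry a title that calls them preconfluent, and the labels do not say how many animals gave a tissue. Each tissue has 1 array per chip, so no p-value or spread between animals can be given, and precision is limited by that number.

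The pancreas is mostly exocrine tissue, in which acinar cells make digestive enzymes and enzyme precursors, pack them into zymogen granules and release them into ducts when hormones and nerves call for it. These proteins enter the endoplasmic reticulum as they are made and are folded there by chaperones and disulphide enzymes, so acinar cells carry a dense rough endoplasmic reticulum. Islets, which release insulin, glucagon and other hormones into the blood, are a small part of the organ.

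An array value is the deposited intensity of a probe set, a linear brightness that can fall below 0 because a signal was subtracted. Values of a probe set were compared between tissues, and ranks were taken within an array. Brightness also depends on the probes, so a rank is not an order of message number. The noise bound of an array is the size of its 1st percentile over the probe sets that are not controls. It was 1165 for pancreas on chip A, against 260 to 1063 for the other 4 tissues, and 2603 on chip B, against 654 to 1633 for them. The pancreas arrays were thus the noisiest, and 1013 of 6523 probe sets on chip A and 546 of 6534 on chip B lay above the bound in pancreas. For the other tissues the numbers were 1080 to 2680 and 735 to 1363. In a bulk sample, fewer cells of a type and less RNA per cell cannot be told apart.

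The 4 markers of the pancreas were the 4 brightest probe sets of its array of chip B, so their values are no separate check of the tissue label. Prss2, a trypsinogen, read 192696 in pancreas, against -691 in muscle, -208 in liver, -58 in hypothalamus and 4 in white adipose tissue. Rnase1, a secreted ribonuclease, read 168167 in pancreas, against 304 in muscle, -766 in liver, -283 in hypothalamus and -401 in white adipose tissue. Amy2a5, a pancreatic amylase that cuts starch, read 167889 in pancreas and between -23 and 47 in the other 4 tissues. The elastase Cela2a read 157779 in pancreas and between 55 and 651 elsewhere. In the other tissues all 4 genes were below the noise bound, so their fold has only a lower limit. It ranged from at least 96.6-fold for Cela2a to at least 118-fold for Prss2, and from 28.0-fold to 34.2-fold when arrays were scaled by spiked-in hybridisation controls.

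Those spike controls were brighter on the pancreas arrays. Their geometric mean over 9 probe sets was 5776 in pancreas on chip A, against 994 to 1522 in the other tissues, and 9577 on chip B, against 1537 to 2774. That is 4.86-fold and 4.73-fold the mean of the others. Scaling by the spikes therefore lowers every pancreas value, and its effect is given beside the counts of the main groups below. A separate sign is the ratio of the 3′ to the 5′ probe set of the actin message, which was 4.74 in pancreas and 1.41 to 2.84 in the other tissues on chip A, and 2.69 against 1.34 to 2.61 on chip B. For Gapdh the ratio was 1.56 in pancreas and 0.881 to 1.18 elsewhere on chip A, and 1.09 against 0.845 to 1.35 on chip B. Probe sets above noise in all 5 tissues numbered 517 on chip A and 248 on chip B. They lay higher in pancreas than the mean of the others by a median of 0.47 and 0.63 log2 units. Once arrays were scaled to a common 75th percentile, these medians were 0.27 and 0.03. For muscle they were 0.45 and 0.25, or 0.23 and 0.00 once scaled, and before scaling they were below 0 in the remaining tissues. The pancreas bound is the highest, so probe sets chosen this way lean to high pancreas values. Of 17 probe sets on both chips, controls included, that were above both bounds in pancreas, the log2 ratio of chip B to chip A had an SD of 0.39, against 0.20 to 0.33 in the other tissues.

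The signal of the pancreas arrays was concentrated in few probe sets, as was that of muscle. The share of positive signal is the part of the summed intensity above 0 that the brightest probe sets hold. The 10 brightest held 7.74% in pancreas on chip A, against 11.9% in muscle, 4.03% in liver, 2.86% in hypothalamus and 3.88% in white adipose tissue. On chip B they held 15.9% in pancreas, 15.9% in muscle, 5.76% in liver, 3.49% in hypothalamus and 5.04% in white adipose tissue. The 100 brightest held 34.9% in pancreas on chip A, below the 37.1% of muscle and above the 21.2% to 28.3% of the other 3 tissues. On chip B they held 44.9% in pancreas, against 50.2% in muscle and 25.8% to 37.1% in the others. On chip A, 50% of the signal lay in 253 probe sets in pancreas, 227 in muscle, 266 in liver, 343 in white adipose tissue and 410 in hypothalamus. On chip B it lay in 142 in pancreas, 99 in muscle, 173 in liver, 232 in white adipose tissue and 279 in hypothalamus.

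Counting only values above the noise bound changed the order of pancreas and muscle for the 100 brightest of chip B, which then held 62.6% in pancreas and 61.8% in muscle. The 10 brightest of chip B then held 22.2% in pancreas and 19.6% in muscle. On chip A the order stayed, with 10.1% in pancreas and 15.4% in muscle for the 10 brightest. Without probe sets of relaxed design, whose probes may match related genes, the 10 brightest of pancreas held 16.7% on chip A and 32.7% on chip B. Probe sets of relaxed design were 4457 of 6523 on chip A and 5459 of 6534 on chip B. Leaving them out leaves fewer probe sets, which by itself tends to raise the share of the top 10. They made up 46 of the 50 brightest in pancreas on chip A and 48 on chip B. For the other tissues it was 44 to 49 of 50.

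**Figure D1:**
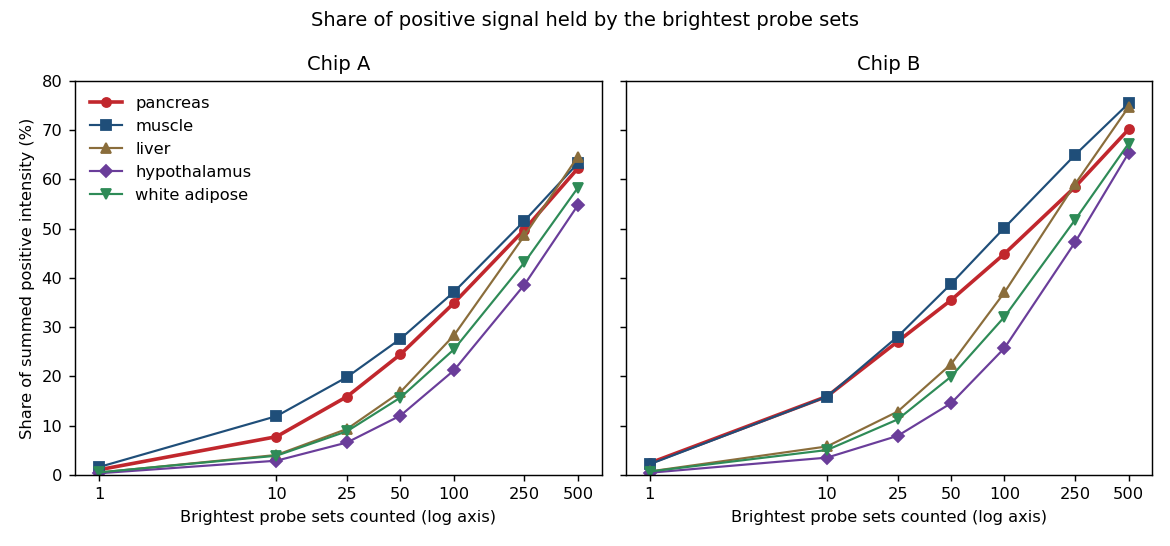
Share of the summed positive intensity of an array (vertical axis, percent) held by its brightest 1 to 500 probe sets (horizontal axis, log scale), for pancreas and the other 4 tissues on chip A (left) and chip B (right). Each point is 1 array. The pancreas curve runs close to that of muscle and above those of hypothalamus and white adipose tissue at every number of probe sets shown.

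What filled the top of the array differed between pancreas and the other tissues. Of the 50 brightest pancreas probe sets of chip A, 22 were among the 50 brightest of no other tissue. By the rule given next, 14 of these were called higher in pancreas, against 0.659% of all probe sets of that chip. On chip B it was 30, of which 18 were called, against 0.735%. A call needs a value 4-fold above every other tissue, which by itself favours probe sets outside their brightest. The same count was not made for the other tissues. The overlap was widest with white adipose tissue, with 21 shared on chip A and 15 on chip B, and it was 11 and 6 with muscle, 7 and 10 with liver, and 13 and 10 with hypothalamus. Only 3 and 2 of the 50 were among the brightest 50 of all 5 tissues.

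By gene group, secreted acinar proteins held 7.22% of the positive signal of pancreas on chip A, against 0.0961% to 0.365% in the other tissues, and 16.2% on chip B, against 0.144% to 1.06%. Ribosomal protein probe sets held 6.56% in pancreas on chip A, against 2.82% to 4.21% elsewhere, and 5.31% on chip B, against 2.36% to 3.55%. Genes of entry into and folding in the endoplasmic reticulum held 3.38% in pancreas on chip A, against 0.439% to 1.2% elsewhere, and 1.13% on chip B, against 0.258% to 0.684%. Nuclear genes of oxidative phosphorylation held 1.61% in pancreas on chip A, against 3.18% to 5.35% elsewhere, and 0.678% on chip B, against 1.65% to 2.63%. The proteasome and ubiquitin list held 0.455% in pancreas on chip A, against 0.844% to 1.16%, and 0.105% on chip B, against 0.254% to 0.684%. Shares of 1 array sum to a fixed whole, so a larger share of 1 group leaves less for the rest. On chip B, 49.6% of the pancreas signal came from probe sets with several genes or no gene name.

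**Figure D2:**
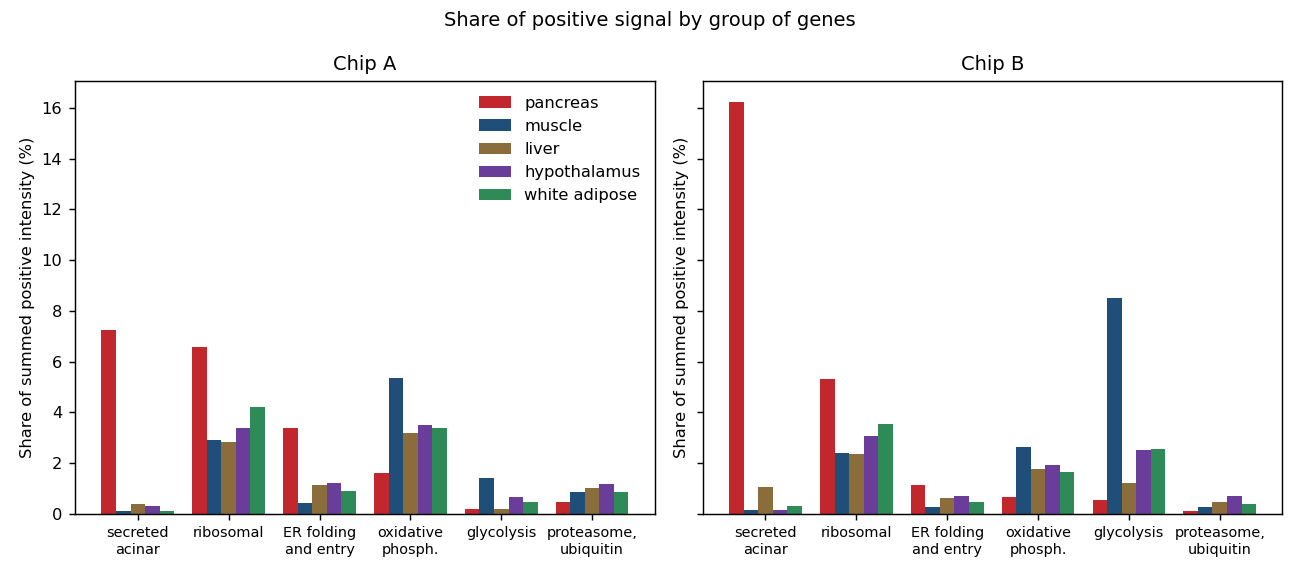
Share of the summed positive intensity (vertical axis, percent, from 0) held by 6 groups of genes in pancreas and the other 4 tissues on chip A (left) and chip B (right). Each bar is 1 array. Pancreas has the highest bar for secreted acinar proteins, ribosomal proteins and the endoplasmic reticulum (ER) group on both chips and the lowest for oxidative phosphorylation, glycolysis and the proteasome.

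A probe set was called higher where its pancreas value lay above the noise bound of its array and exceeded each of the other 4 tissues, raised to its own bound, by 4-fold or more. It was called lower where the other 4 tissues all lay above their bounds and the lowest of them was at least 4 times the larger of pancreas value and pancreas bound. Of 13057 probe sets, 91 were called higher in pancreas (0.697%) and 2 lower (0.0153%). Chip A gave 43 of the 91 (0.659%), and chip B 48 (0.735%). Of these, 61 had a name, for 59 genes, 78 were of relaxed design, and for 62 a noise bound sets the fold, which is then a lower limit. The same rule gave 34 on chip A and 64 on chip B for muscle, 77 and 51 for liver, 30 and 19 for hypothalamus, and 20 and 12 for white adipose tissue. When pancreas values were taken with opposite sign, 5 probe sets met it, up to 6.13-fold. With spike scaling 26 were called, and with muscle left out of the comparison 242. Of the 59 genes, 16 had several probe sets. For only 2 of the 16 were all probe sets called, and for 9 another one was not above noise in pancreas.

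Secreted acinar proteins made up the largest group of named calls. The 4 lists of proteases, lipases, amylases and nucleases, and proteins of granules and mucosa hold 60 genes, of which 33 were measured, 27 were above noise in pancreas and 23 were called higher, against 0.88% of all 6137 named genes. In the lists a gene is read by its probe set of highest mean rank over the 5 tissues. The median log2 difference between pancreas and the mean of the other 4 tissues over the 33 was 4.55, with values under the highest noise bound of the chip set to it, and 0.00 over all named genes. With spike scaling 20 of the 33 were called and the median was 2.58. Without relaxed designs only 5 of the 33 were measured, and 3 of these, Ctrl, Clps and Reg2, were called.

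Among the proteases beside Prss2, the trypsinogen Try4 read 54495 in pancreas on chip A and between 12 and 152 in the other 4 tissues. The chymotrypsin-like protease Ctrl read 30012 in pancreas and was below 0 in all 4 others. A second elastase gene, Cela1, read 86505 in pancreas on chip B, against 1438 in white adipose tissue and 353 to 872 in the rest, but its probe set on chip A read 2490 in pancreas and at most 185 elsewhere, which is 2.34-fold over the noise bound and no call. Spink1, the inhibitor of trypsin packed with it, read 49155 in pancreas and 124 to 570 elsewhere.

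Tissue kallikreins, serine proteases of gland secretions, gave 5 called genes. Klk1 read 44885 in pancreas and was below 0 in the other 4 tissues. Klk1b5 read 106804 in pancreas, against 1720 in muscle and 197 to 427 in the rest, and its other probe set 14525 against values below 0. Klk1b26 read 53530 by 1 probe set and 61 and 353 by 2 others, both under the noise bound, and that at 61 is the only kallikrein probe set given here that is not of relaxed design. Klk1b9 read 21664 by 1 and -380 by the other. Klk1b16, the last, read 6578 on chip B, at least 4.03-fold above the others and just inside the rule, and 2164 on chip A. All 5 lie in 1 cluster with at most 3 coding genes between neighbours, and all of their called probe sets were of relaxed design, so these signals cannot be assigned to single members.

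Enzymes that digest fat and starch followed the same pattern. Clps, the cofactor colipase, read 35677 in pancreas, Cel, an esterase of bile-salt-dependent lipid digestion, 30085, and the lipase Pnliprp2 24909. None of the 3 passed 760 in another tissue, and their folds were at least 23.4-fold. The amylases Amy2b and Amy2a1 read 90844 and 65423 in pancreas and at most 56 elsewhere, and a second probe set of Amy2b read 11 in pancreas, under the noise bound. Amy1, the amylase of salivary gland and liver, read 99594 in pancreas, against 12205 in liver, 10097 in white adipose tissue, 3740 in hypothalamus and 2645 in muscle. It was the only called amylase above noise in all 5 tissues, at 8.16-fold over liver. The 4 amylase genes lie side by side, with 0 or 3 coding genes between neighbours, and near-identical copies may share probes.

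Proteins of the granule and of mucosal secretion made up the fourth list. Dmbt1, a scavenger receptor-like glycoprotein of mucosal secretions, is not in that list and not counted in the acinar group. It was the brightest named probe set of chip A, at 57442 in pancreas and at most 127 elsewhere. Reg1, a regenerating protein of pancreatic juice, read 45378 in pancreas and at most 101 elsewhere. Zg16, a lectin of the zymogen granule membrane, read 43557 in pancreas, against 491 in muscle and 88 to 365 in the rest. Tff2, a trefoil peptide that protects mucus, read 88610 in pancreas and at most 225 elsewhere. Cuzd1, a zymogen granule membrane protein, reached 27271 and Reg2 15525, both with values below 0 in all other tissues. Clu, the secreted chaperone clusterin, was bright in pancreas at 35205 but also in liver at 15632 and in hypothalamus at 12205, and was not called. Tmprss15 and Dnase1, which encode the gut enzyme that activates trypsinogen and a secreted nuclease, read -87 and 109 in pancreas, under its bound.

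**Figure D3:**
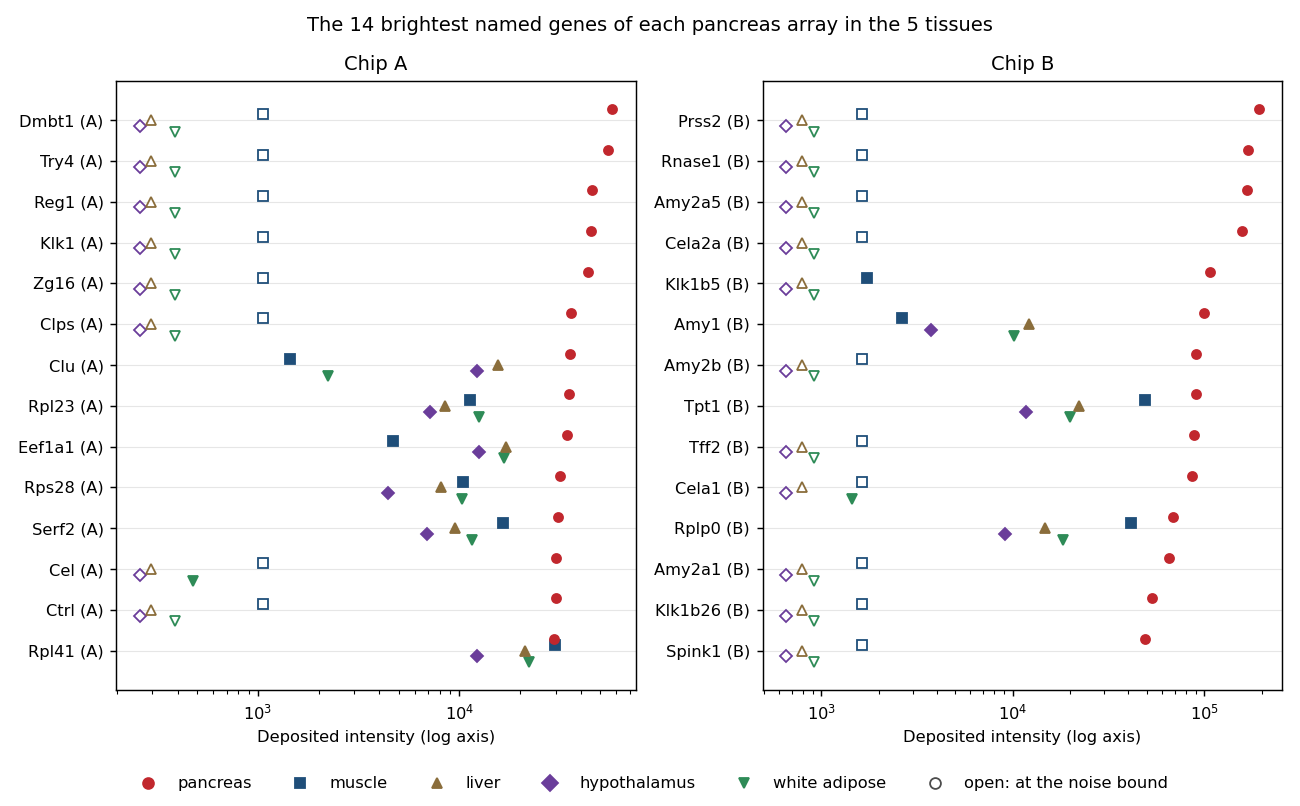
Deposited intensity (horizontal axis, log scale) of the 14 brightest named genes of the pancreas array of chip A (left) and chip B (right), 1 point per array, with pancreas as red circles and the other 4 tissues in other colours. Open symbols are values under the noise bound of their array, drawn at the bound. Digestive genes such as Prss2 and Try4 have open symbols in all 4 other tissues, while ribosomal proteins, Eef1a1, Tpt1 and Clu are bright everywhere or in several tissues.

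The promoters of digestive genes are known to be bound by the acinar factor PTF1, which reads an E-box and a TC-box. Windows of 250 bases before the start of transcription were taken from RefSeq (GRCm38.p6) and searched on both strands for the E-box letters CACCTG, the TC-box letters TTTCCC and the TATA-box letters TATAAA, which do not overlap in the windows shown. Of 23 called acinar genes, 19 had a window, and CACCTG was in 12 of them (63.2%), against 17.1% of all 27025 windows. TTTCCC was in 5 (26.3%, against 21.9%), TATAAA in 8 (42.1%, against 13.0%), and CACCTG together with TTTCCC in 4 (21.1%, against 3.63%). A match is a description of letters and not a binding site. The windows with both are printed below, 5′ to 3′ on the strand of the gene, with the matched letters of either strand in capitals. They lie at chr6:41521526-41521775 (plus strand) for Prss2, chr4:141826006-141826255 (minus) for Cela2a, chr15:100687921-100688170 (minus) for Cela1 and chr2:28563404-28563653 (minus) for Cel.
Prss2: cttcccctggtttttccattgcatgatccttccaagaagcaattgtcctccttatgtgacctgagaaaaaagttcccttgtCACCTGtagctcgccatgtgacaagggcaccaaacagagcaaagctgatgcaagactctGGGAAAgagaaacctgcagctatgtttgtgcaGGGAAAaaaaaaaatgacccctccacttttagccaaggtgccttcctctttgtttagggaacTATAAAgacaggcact
Cela2a: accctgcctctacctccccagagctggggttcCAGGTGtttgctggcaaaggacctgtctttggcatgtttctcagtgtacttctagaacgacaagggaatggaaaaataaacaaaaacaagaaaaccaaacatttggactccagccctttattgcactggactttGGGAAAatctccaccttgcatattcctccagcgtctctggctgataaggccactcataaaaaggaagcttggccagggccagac
Cela1: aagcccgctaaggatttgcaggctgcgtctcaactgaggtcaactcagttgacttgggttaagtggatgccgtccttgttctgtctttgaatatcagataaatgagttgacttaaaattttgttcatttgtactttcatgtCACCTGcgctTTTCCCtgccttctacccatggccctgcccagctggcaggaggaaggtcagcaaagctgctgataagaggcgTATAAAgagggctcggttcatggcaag
Cel: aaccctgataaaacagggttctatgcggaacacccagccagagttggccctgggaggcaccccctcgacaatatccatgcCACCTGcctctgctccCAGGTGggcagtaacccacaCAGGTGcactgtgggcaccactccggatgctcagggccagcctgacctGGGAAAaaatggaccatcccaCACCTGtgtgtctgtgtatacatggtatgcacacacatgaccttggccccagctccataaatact

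The machinery that takes secreted proteins into the endoplasmic reticulum and folds them was also high in pancreas. Of 45 measured genes of the folding and entry lists, 29 were above noise in pancreas. Of the 45, 26 had their highest value there and 6 were called, against 8.95% and 0.88% of all named genes. The median log2 difference was 0.93 for folding and 0.49 for entry, or 0.85 over both, against 0.00 for all named genes. With spike scaling 4 of the 45 were highest in pancreas, 0 were called, and the median of both lists was 0.00. It was also 0.00 with the noise bound doubled and without relaxed designs, and 1.75 with 1 common floor per chip. Only 8 of the 45 were above noise in the other 4 tissues and could be called lowest, and 0 were.

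Ero1b, an oxidase that drives disulphide formation and is known from pancreas, read 17537 in pancreas, against 406 in muscle, 672 in liver, 667 in hypothalamus and -136 in white adipose tissue, at least 16.5-fold. Tram1, which helps chains enter the translocation channel, was called by both of its probe sets, at 10492 and 6753 in pancreas and at most 1093 elsewhere. Manf, a stress-induced resident of the endoplasmic reticulum, read 11256 in pancreas, against 1995 in hypothalamus and 156 to 1099 in the rest. Creld2 read 5760 in pancreas and 224 to 483 elsewhere. Dnajc3, a co-chaperone of Hspa5, read 8203 in pancreas on chip A, against 1682 in liver and 366 to 913 in the rest, and 3190 on chip B, where it was 1.95-fold over the noise bound. Sec11c, a subunit of the signal peptidase, read 7221 in pancreas, against 1342 in hypothalamus and 37 to 376 in the rest.

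Hspa5, the main chaperone of the endoplasmic reticulum, read 17365 in pancreas on chip A, against 1078 in muscle, 3122 in liver, 3230 in hypothalamus and 1784 in white adipose tissue. It was 5.38-fold above the next tissue there and 3.25-fold on chip B, whose probe set represents it in the list. Members of this group below the rule were Calr, a calcium-binding chaperone, at 3.39-fold, Herpud1, of endoplasmic reticulum protein breakdown, at 3.15-fold, Dnajb11 at no less than 2.62-fold and the prolyl isomerase Ppib at 2.25-fold. Of the entry list, the translocon-associated Ssr4 was at 3.71-fold, Krtcap2, of the oligosaccharyl transferase, at 3.66-fold and the signal peptidase subunit Spcs2 at 3.35-fold. Sec61a1, the channel itself, was called on chip B at 4.02-fold, and its brighter probe set on chip A was at 1.67-fold over white adipose tissue.

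Upstream of some of these genes stands the endoplasmic reticulum stress response element, CCAAT and CCACG separated by 9 bases, which ATF6 is known to read. Both strands of the same windows were searched for it. Of the 26 genes of the folding and entry lists that were highest in pancreas, 21 had a window, and 6 of these (28.6%) held the element: Calr, Canx, Creld2, Dnajc3, Ero1b and Hspa5. It was in 33 of all 27025 windows (0.122%) and in 0 of the 19 windows of called acinar genes. Genes of these lists that were not highest in pancreas were not counted apart. A link of the element to pancreas values was therefore not tested. Windows of the 4 members called by at least 1 probe set are printed with the element in capitals, on either strand. They lie at chr2:34771840-34772089 for Hspa5, chr13:12565633-12565882 for Ero1b, chr15:88819396-88819645 for Creld2 and chr14:118937682-118937931 for Dnajc3, all on the plus strand.
Hspa5: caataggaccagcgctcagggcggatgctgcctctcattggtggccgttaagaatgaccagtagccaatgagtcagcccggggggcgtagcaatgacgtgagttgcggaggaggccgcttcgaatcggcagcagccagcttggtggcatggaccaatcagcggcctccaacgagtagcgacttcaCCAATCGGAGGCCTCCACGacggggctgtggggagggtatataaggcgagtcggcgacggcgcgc
Ero1b: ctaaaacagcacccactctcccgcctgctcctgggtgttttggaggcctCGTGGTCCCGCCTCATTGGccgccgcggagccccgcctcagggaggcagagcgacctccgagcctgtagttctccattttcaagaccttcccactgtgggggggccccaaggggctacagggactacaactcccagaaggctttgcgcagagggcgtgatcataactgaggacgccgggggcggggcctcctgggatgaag
Creld2: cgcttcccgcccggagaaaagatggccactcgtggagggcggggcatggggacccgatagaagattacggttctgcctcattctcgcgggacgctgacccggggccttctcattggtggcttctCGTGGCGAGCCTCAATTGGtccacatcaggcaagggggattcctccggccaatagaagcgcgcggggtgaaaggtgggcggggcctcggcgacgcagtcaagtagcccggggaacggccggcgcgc
Dnajc3: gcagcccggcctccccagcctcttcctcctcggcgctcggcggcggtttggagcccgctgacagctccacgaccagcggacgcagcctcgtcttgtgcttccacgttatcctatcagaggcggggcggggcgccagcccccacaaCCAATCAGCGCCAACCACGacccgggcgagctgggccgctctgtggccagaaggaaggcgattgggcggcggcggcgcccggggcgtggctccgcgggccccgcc

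Of 28 measured genes of Golgi and vesicle transport, the later steps of secretion, 7 were highest in pancreas (25%, against 8.95% of all named genes) and 1 was called (3.57%, against 0.88%). Their median log2 difference was 0.00, with only 15 of the 28 above noise in any tissue. The called member was Kdelr3, a receptor that returns chaperones to the endoplasmic reticulum, at 5423 in pancreas and 124 to 631 elsewhere. Surf4, a cargo receptor, read 8074 in pancreas, against 2288 in white adipose tissue, at 3.53-fold. Kdelr1 was near level, at 7303 in pancreas and 3673 to 6517 elsewhere. Sar1b, a small GTPase of coat formation, was the lowest in pancreas, at 1452, against 2045 to 9144.

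Of 8 measured regulators of the unfolded protein response, 3 were above noise in pancreas (37.5%, against 16% of all named genes). These were Atf4, Xbp1 and Asns, which is also in the list of amino acid supply. Each had its highest value there (37.5%, against 8.95%), and 1 was called (12.5%, against 0.88%). The rest lay under the noise bound of pancreas, and the median log2 difference of the list was 0.00. Atf4, a transcription factor of the stress response, read 11360 in pancreas and 1348 to 3174 in the other tissues, at 3.58-fold. Xbp1, which is required for the acinar secretory apparatus in mice, read 3322 in pancreas and 581 to 1399 elsewhere. Asns, which makes asparagine, read 8396 in pancreas, against 1554 in hypothalamus, 1179 in white adipose tissue, 26 in liver and -139 in muscle, and was called at 5.40-fold. Of 22 measured genes of amino acid supply, 10 were above noise in pancreas (45.5%, against 16% of all named genes). The highest value lay there for 8 (36.4%, against 8.95%), with Asns the only call (4.55%, against 0.88%). The amino acid transporters Slc38a5 and Slc3a2 were at 2.94-fold and 2.49-fold. Psat1, of serine synthesis, read 2131 in pancreas and at most 652 elsewhere, and Mthfd2, of mitochondrial folate, 2297 and at most 783, while Phgdh, which opens the serine path, read 4519 in pancreas and 3922 in white adipose tissue.

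Receptors for the signals that release enzymes were called as well. Cckar, the receptor for cholecystokinin, read 5036 in pancreas and at most 84 elsewhere, at least 4.74-fold. Chrm1, a muscarinic acetylcholine receptor, read 6828 in pancreas on chip B, against 1695 in muscle, and was just inside the rule at 4.03-fold. Of 10 measured genes of this list 3 were above noise in pancreas (30%, against 16% of all named genes). Atp2a3, a calcium pump of the endoplasmic reticulum, was called at 4799 by 1 probe set and read -313 and -317 by 2 others. Of 14 measured transcription factors of acinar cells, 3 were above noise in pancreas (21.4%, near the 16% of all named genes) and 0 called. They were Nr5a2 at 2718, against 1862 in liver, Gata4 at 1291, against values under the bounds of the other tissues, and Xbp1. The other 11 can only be said to lie under the noise bound of pancreas.

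Ribosomal protein genes were higher in pancreas by a smaller step in the deposited values, and lower with spike scaling. Of 44 measured, 34 were above noise in pancreas, 31 had their highest value there and 12 were at least 2-fold above the next tissue (3.01% of all named genes were), but 0 passed the 4-fold rule and 0 were lowest in pancreas. Their median log2 difference was 1.0, against 0.00 for all named genes and against the shift of 0.47 and 0.63 of the pancreas arrays given above. Scaling to the 75th percentile gave 0.71, quantile normalization 0.73 and spike scaling -0.75, where 0 of the 44 were highest in pancreas, so the direction of the group turns with that scaling. Without relaxed designs 7 were measured and 1 was highest.

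Rps28 read 31491 in pancreas, against 4414 to 10414 in the other tissues, the largest fold of the group at 3.02. Rps24 read 29959 in pancreas, against 6276 to 10451, and Rps4x 12910, against 3006 to 4592. Rpl41, the shortest ribosomal protein, showed no such step, at 29503 in pancreas and 29914 in muscle. Rps19 read 4736 in pancreas and was highest in white adipose tissue, at 8283. Of 25 translation factors, 8 were highest in pancreas (32%, against 8.95% of all named genes), and the median was 0.00. Of the 16 above noise in the other 4 tissues 4 were lowest in pancreas, against 16.8% of the 819 such named genes. Eef1b2, an exchange factor of elongation, was called at 6554 in pancreas, against 1209 to 1411, and Eif5a was just outside the rule at 3.87-fold. Eef1a1, which carries transfer RNA to the ribosome, read 34277 in pancreas on chip A, against 4662 in muscle and 12482 to 17046 in the rest. Eif4a2, a helicase of initiation, was among those lowest in pancreas, at 5245, against 5886 to 13234.

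**Figure D4:**
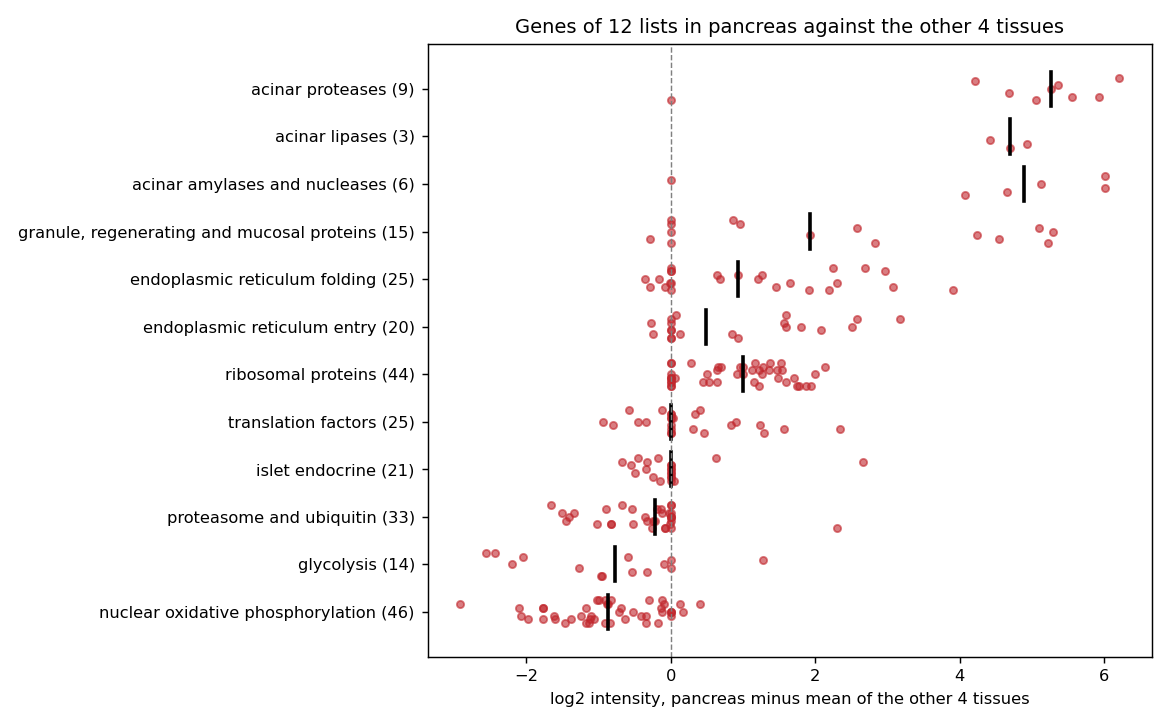
Difference in log2 intensity between pancreas and the mean of the other 4 tissues (horizontal axis) for the measured genes of 12 lists (vertical axis, number measured in brackets). Each point is 1 gene, read by 1 probe set, with values under the highest noise bound of its chip set to that bound, and the black line is the median of the list. Acinar lists lie furthest to the right, ribosomal genes near 1.0 (below 0 with spike scaling), and oxidative phosphorylation to the left of 0.

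Islet, duct and stromal genes were above the noise bound of pancreas in shares of 19.0%, 33.3% and 23.1%, against 16% of all named genes. Ins2, which encodes insulin, read 16466 in pancreas and 167 to 616 elsewhere, at least 10.1-fold, and its other probe set read 1475, under the bound. Of 21 measured islet genes, 4 were above noise in pancreas and 1 was called. Gcg, for glucagon, read 756, Iapp, for amylin, 510 and Sst, for somatostatin, -507 in pancreas, all under their bounds, while Ppy, for pancreatic polypeptide, read 1963 in pancreas and 1661 in muscle. Of 12 duct genes, 4 were above noise in pancreas and 3 highest there. Muc1, a surface mucin that is also counted in the granule and mucosal list, was called, at 4428 in pancreas and at most 125 elsewhere. The keratin Krt8 read 3403 in pancreas and 2794 in liver, Krt18 1565 in pancreas and 1908 in liver, and Prom1, a membrane protein of ducts, 1637 in pancreas and at most 470 elsewhere, while Krt19, a duct keratin, read 78 in pancreas, under the bound. Of 26 genes of fibroblasts and matrix, 6 were above noise in pancreas, among them Col3a1 at 7484, against 22210 in white adipose tissue. Of 10 endothelial genes, 0 were above noise.

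Some genes of other cells were above noise in pancreas, those of lymphocytes in a share near that of all named genes. Of 20 measured lymphocyte genes 4 were above noise in pancreas (20%, against 16% of all named genes) and 0 were called. The 4 were Ptprc, Ms4a1, Ighm and Jchain, while the T and B cell markers Cd3d, Cd3e, Cd3g, Cd4, Cd8a, Cd22, Cd79a and Cd79b were under the bound. Summed over the 20, values above 0, those under the bound included, came to 27643 in pancreas, 7677 in muscle, 12963 in liver, 5409 in hypothalamus and 36496 in white adipose tissue. Ptprc, the leukocyte antigen CD45, read 7262 in pancreas, against 889 to 1833, just outside the rule at 3.96-fold. Of 17 measured genes of macrophages and granulocytes, 3 were above noise in pancreas (17.6%, near the 16% of all named genes). The highest value lay there for 2 (11.8%, against 8.95%), and 0 were called. Their values above 0 summed to 21030 in pancreas, 36399 in white adipose tissue and 8114 to 14247 in the rest. Among them S100a9, of granulocytes, read 2713 in pancreas and was at most 9 elsewhere. Hba-a1, an alpha globin of red cells, read 43690 in pancreas, against 6181 to 23878, and was the only 1 of the 5 listed red cell genes above noise. The beta globin Hbb-b2, which the list did not hold, read 18084 in pancreas, against 3676 to 10996. The sum of 16 plasma protein genes of liver was 49042 in pancreas and 310066 in liver. Among them albumin, Alb, read by a probe set of relaxed design, was at 26215 in pancreas, 18170 in liver and 8194 in muscle. It was under the noise bound in the other 2 tissues. The other 15 were below liver or under noise in pancreas, with Ahsg at 2909 in pancreas and 17158 in liver. Of 15 contractile genes of muscle, 1 was above noise in pancreas (6.67%), and of 15 white adipocyte genes 4 were (26.7%), none highest. The part of these cells in the results was not tested.

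Other genes called higher have no list in common. Dazap1, an RNA-binding protein, read 32995 in pancreas, against 836 in hypothalamus, 824 in liver, 587 in white adipose tissue and -178 in muscle, at least 20.2-fold. Edem2, which marks misfolded glycoproteins for breakdown, read 10047 in pancreas and 267 to 883 elsewhere. Gal, the neuropeptide galanin, read 9342 in pancreas, against 2304 in hypothalamus and 25 to 312 in the rest. Tmem97, a sterol-binding membrane protein, read 11861 in pancreas and 1961 in liver. Psmb10, a subunit of the immunoproteasome, read 5727 in pancreas and at most 997 elsewhere, unlike the other genes of its list. It is the next coding gene to Ctrl in the genome. The brightest called probe set with no gene name read 123557 in pancreas on chip B and 677 to 1887 in the other tissues. Mt1, a metal-binding metallothionein, read 44781 in pancreas and 22534 in liver, at 1.99-fold, and was not called.

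Near the threshold, the calls of lowest fold were Sec61a1 at 4.02, Klk1b16 at a lower limit of 4.03, Chrm1 at 4.03 and Gal at 4.05. The named probe sets just outside were Ptprc at 3.96, Eif5a at 3.87 and Ssr4 of chip B at 3.71, with lower limits of 3.94 for Kdm5a, 3.75 for Ssr4 of chip A and 3.69 for Mapre1.

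Messages of energy metabolism were the main named group on the low side. Of the 1225 probe sets above noise in the other 4 tissues, 188 were lowest in pancreas (15.3%), which is 1.44% of all probe sets, and 30 of these were lower by at least 2-fold (0.23%). The pancreas bound is high, so 15 of the 30 folds are lower limits. Named genes among the 30 number 21, and muscle was the highest tissue for 21 of the 30 probe sets. With 75th percentile scaling 70 probe sets were lower by 2-fold and with spike scaling 647, in both cases with all 30 among them. The 188 lowest became 307 and 1056 with those scalings, 418 with quantile normalization, 1130 with 1 common floor per chip and 87 with the noise bound doubled.

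Of 46 measured nuclear genes of oxidative phosphorylation, 38 were above noise in the other 4 tissues and 27 were lowest in pancreas, against 16.8% of the 819 named genes that could be so called. Of the 27, 7 were lower by at least 2-fold, as were 20 of the 819, these 7 included, and the median log2 difference of the list was -0.87. The same rule found 2 of the 46 lowest in muscle, 2 in liver, 2 in hypothalamus and 4 in white adipose tissue, and 37 had their highest value in muscle. With muscle left out the median was -0.68 and 29 were lowest. The median was -1.06 after scaling to the 75th percentile, -0.91 after quantile normalization and -2.19 after spike scaling, and without relaxed designs 3 of 6 measured were lowest.

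Atp5j, a coupling subunit of ATP synthase, was the only named gene called lower by the 4-fold rule. It read 788 in pancreas, under its bound, against 21876 in muscle, 6653 in liver, 5293 in hypothalamus and 7641 in white adipose tissue, at least 4.54-fold below the lowest of them. Uqcr10, of complex III, read 796 in pancreas and 4145 to 7950 elsewhere, and Uqcrfs1, its iron-sulphur protein, -103 in pancreas and 3902 to 5798 elsewhere. Atp5l, of ATP synthase, was above noise in pancreas at 2299, against 6486 to 15285, a measured 2.82-fold. Cox7c, of cytochrome oxidase, read 5533 in pancreas and 12702 to 32595 elsewhere. Atp5a1, the catalytic partner subunit, was 2.51-fold lower on chip B, and on chip A read 3879 in pancreas, against 5816 to 9522. Vdac1, the main pore of the outer mitochondrial membrane, read 1206 in pancreas and 3983 to 19642 elsewhere, at 3.30-fold. Mdh1, a malate dehydrogenase, read 2799 in pancreas and 6335 to 10315 elsewhere. Ndufb10, of complex I, was the 1 member above noise in pancreas and highest there, at 1545 in pancreas and below 0 in the other 4 tissues.

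Glycolytic genes were few but among the furthest down. Of 14 measured, 6 were above noise in the other 4 tissues. Of these 3 were lowest in pancreas, against 16.8% of the 819 named genes that could be so called. Each was lower by at least 2-fold, as were 20 of the 819. Tpi1, which interconverts the triose phosphates, read 2684 in pancreas on chip B, against 9517 to 34935, and 1821 on chip A, against 5207 to 19289, so that both chips gave a measured fold, 3.55 and 2.86. Ldha, a lactate dehydrogenase, read 29 and -1941 in pancreas by its 2 probe sets on chip B and at least 5562 in every other tissue. Gapdh, often used as a reference gene, read 6373 in pancreas, against 89219 in muscle, 23785 in liver, 16300 in hypothalamus and 21396 in white adipose tissue. The 3 control probe sets of Gapdh gave 1676 to 2952 in pancreas on chip A, against 11567 to 92418 in the other tissues, and 2759 to 5613 on chip B, against 16089 to 125695. The 5′, middle and 3′ controls were thus all lowest in pancreas, on both chips. The reference gene Ppia differed less, at 11843 in pancreas, against 5070 to 15944, and Hk1, a hexokinase, was highest in pancreas at 9933, against 2572 to 7395.

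Subunits of the proteasome, which breaks down tagged proteins, were low too. Of 33 measured genes of the proteasome and ubiquitin list, 18 were above noise in the other 4 tissues. Of these 14 were lowest in pancreas, against 16.8% of the 819 named genes that could be so called. By at least 2-fold 4 were lower, against 20 of the 819. Psmb3 read 1298 in pancreas, against 3180 to 4029, and Psmb4 1602, against 3541 to 5419. Psma6 and Psmd4 read 817 and 860 in pancreas, under the bound, and at least 2624 elsewhere. The median of the list was -0.22, and it was -0.82 with quantile normalization, -0.83 with the bound at the 5th percentile and -1.31 with 1 common floor per chip, where 23 genes were lowest. With the noise bound doubled the median was 0.00 and 5 genes were lowest. Sqstm1, an adaptor of autophagy, read 3480 in pancreas and 7810 to 18699 elsewhere, and Ghitm, of the inner mitochondrial membrane, 1029, against 2718 to 3916. Scd1, a fatty acid desaturase, read 1228 in pancreas, against 2499 in hypothalamus and 6006 to 18401 in the rest. Hspa8, a cytosolic chaperone, was lowest in pancreas on chip A, at 4671, against 7209 to 10593, and on chip B.

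**Figure D5:**
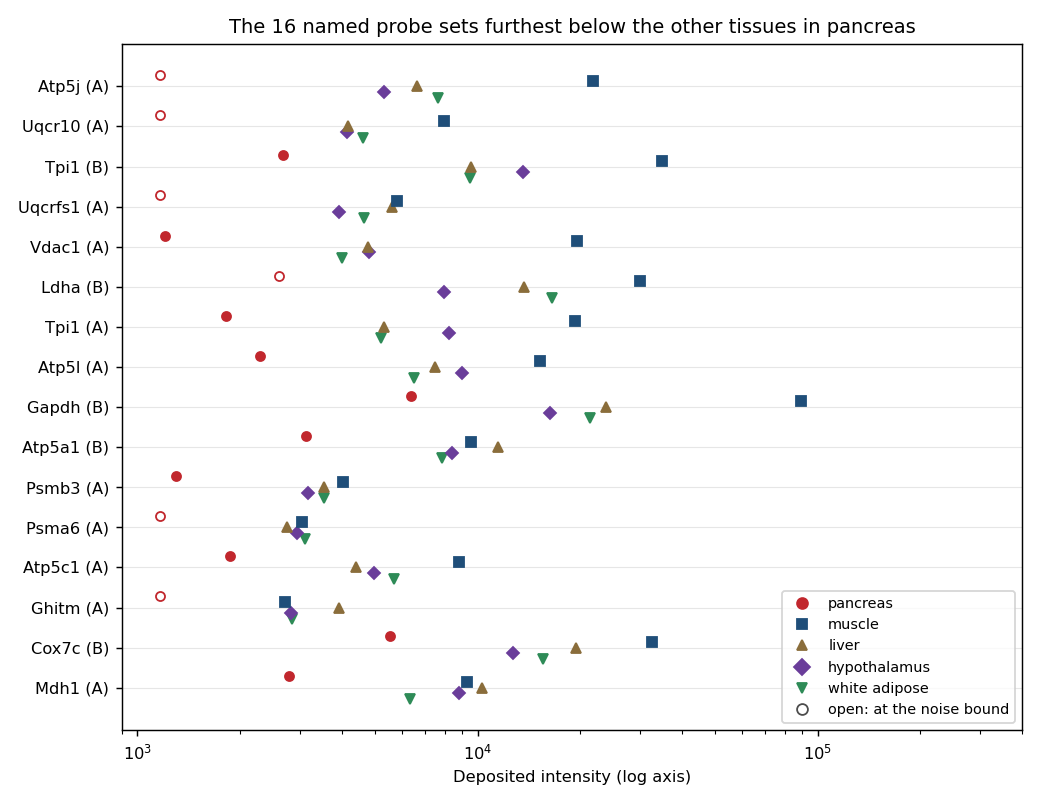
Deposited intensity (horizontal axis, log scale) of the 16 named probe sets furthest below the other tissues in pancreas, with the chip in brackets. Each point is 1 array, pancreas as red circles, and open circles are pancreas values under the noise bound, drawn at the bound. The pancreas point is left of all 4 others in each row, and for most rows muscle is furthest to the right.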

How the data were processed

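The authors deposited 1 intensity per probe set and array, a linear whole number that can be below 0. Per the labels, biotin-labelled cRNA was made from 10 µg of total RNA for Affymetrix arrays; the software is not given in the sources used here. After trimming 2% at each end, the mean of every array was 500.0, so arrays had been brought to 1 level before deposit, and no further normalization was applied.

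Of 6584 and 6595 probe sets, 61 on each chip were controls and left out. Names came from the platform annotation, updated by gene identifier through RefSeq (GRCm38.p6): on chip A 5541 probe sets had 1 gene, 197 several and 785 none, and on chip B 2001, 27 and 4506. Probe sets with several genes or none are unnamed. No significance test was made, because each tissue has 1 array per chip. The fold rules were tested on simulated data. Named genes are the brightest named probe sets (30 of chip A, 15 of chip B), the called genes and those lower by 2-fold with the largest folds (20 each), called members and up to 6 members of largest fold from each list, the markers, the reference genes, and genes at the edge of the rule. From these the text gives the ones described. Atp2a3, Canx, Dazap1, Dnajb11, Dnase1, Edem2, Eif4a2, Gcg, Herpud1, Iapp, Hbb-b2, Kdelr1, Krt19, Ndufb10, Phgdh, Ppib, Rps19, Sst, Tmem97, Tmprss15 and the lymphocyte markers under noise, outside that rule, were chosen after their values were seen, as were called genes named only for their dependence on scaling. The members and lists were chosen with earlier results of these data known. Protein sequences were not used here. Motifs were searched with Python 3.11.15, and tables were made with numpy 2.4.6 and pandas 2.3.3. Alternatives varied the scaling, the noise bound, the fold rule, the probe set design and the tissues compared.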

Additional observations from a re-analysis of the deposited data

How the results depend on the processing

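With 1 array per tissue no replicate could be left out. No paired analysis was possible because each tissue has 1 array per chip and the labels give no replicate numbers. A count or share was taken as moved past 1.5 times. The 91 probe sets called higher became 26 with spike scaling, 185 with the noise bound at the 5th percentile, 53 with it doubled, 466 with 1 common floor per chip, 347 with a 2-fold rule, 44 with an 8-fold rule, 13 without relaxed designs and 242 without muscle. The 2 called lower became 7 with 75th percentile scaling, 10 with quantile normalization, 236 with spike scaling, 11, 0 and 100 with those 3 bounds, 30 and 0 with a 2-fold and an 8-fold rule, 0 without relaxed designs, and 6 without muscle or without hypothalamus. The 30 lower by 2-fold became 70, 81 and 647 with the 3 scalings, 77, 8 and 390 with the 3 bounds, 2 without relaxed designs, 49 without liver and 52 without hypothalamus. Of the gene lists, 3 acinar genes of 5 measured were called without relaxed designs. Endoplasmic reticulum calls were 0 with spike scaling, 3 with the bound doubled, 17 and 2 with a 2-fold and an 8-fold rule, and 2 without relaxed designs. Ribosomal genes highest in pancreas were 0 with spike scaling and 1 without relaxed designs, and 3 oxidative phosphorylation genes were lowest without relaxed designs. The top 10 held 16.7% on chip A and 32.7% on chip B without relaxed designs. That setting leaves fewer probe sets, which by itself lowers counts and tends to raise such shares. Spike scaling turned the ribosomal median to -0.75 and put 15 called probe sets below another tissue, as the fold of pancreas over the highest other: Manf 0.971, Atp2a3 0.956, Asns 0.930, Tigd5 0.928, Sec11c 0.926, Hspa5 0.925, Ash2l 0.923, Samd10 0.884, Muc1 0.882, Copz2 0.806, Eef1b2 0.799, Ly86 0.794, Csnk1g2 0.738, Sec61a1 0.720 and Gal 0.698. Spike scaling lowers pancreas values by construction; why the spikes were brighter there was not tested. Of the other settings, only 75th percentile scaling and quantile normalization could have reversed a called named probe set, and neither did. By the way the rule is built, the rest could not put a called probe set below another tissue, so they are no check of direction. The other settings did not reverse the medians of the acinar, endoplasmic reticulum, ribosomal, oxidative phosphorylation and proteasome lists. Medians of other lists were not recomputed.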
